A study of Mus musculus with 25 samples.

Results

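The 9 genes described here, Mitf, Sox10, Pax3, Tfap2a, Foxd3, Lef1, Erbb3, Ednrb and Kit, encode transcription factors and cell surface receptors that act in melanocytes and in the neural crest, the embryonic tissue from which melanocytes arise. They were taken by symbol from the 55450 genes of the deposited count table, and all 9 were found there and passed the filter on low counts. They were followed in 25 bulk tumours grown in C57BL/6 mice from B2905 (M4), a mouse melanoma cell line. The mice of 20 tumours were given anti-CTLA-4, which blocks an inhibitory receptor of T cells, and those of the other 5 tumours, here called controls, an IgG2b isotype antibody. Both were given at 10 mg/kg, starting when tumours averaged 75 mm3. The submitters sorted the anti-CTLA-4 tumours by their course until 10 to 11 days had passed since the final dose, into 8 responders that shrank, 6 stable tumours and 6 non-responders that grew. The labels name no genetic change in host or tumour. All tumours came from 1 cell line, so the groups are repeated grafts of that line in separate mice, and in bulk RNA fewer melanoma cells and less RNA per cell cannot be told apart.

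MITF is the basic helix-loop-helix transcription factor that switches on the genes of melanin synthesis, including Tyr, Tyrp1, Dct and Pmel, by binding short E-box motifs in their promoters. SOX10, PAX3 and LEF1 are known to act on the melanocyte promoter of Mitf, and TFAP2A works beside MITF at pigment genes, whereas FOXD3 is known as a neural crest factor that restrains Mitf. KIT, EDNRB and ERBB3 are the receptors for stem cell factor, endothelins and neuregulins, signals that guide melanoblasts and their survival.

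The promoter windows of Mitf and of 3 pigment genes show where the motifs that link them lie. Each is the 250 bases before a RefSeq gene start on GRCm38.p6, written 5′ to 3′ on the gene's strand. Capitals mark, in Mitf, the LEF/TCF motif CTTTGAT and the cAMP response element TGACGTCA, and in the pigment genes the E-box CATGTG, or CACATG where it lies on the other strand.
Mitf, chr6:97991533-97991782, plus strand: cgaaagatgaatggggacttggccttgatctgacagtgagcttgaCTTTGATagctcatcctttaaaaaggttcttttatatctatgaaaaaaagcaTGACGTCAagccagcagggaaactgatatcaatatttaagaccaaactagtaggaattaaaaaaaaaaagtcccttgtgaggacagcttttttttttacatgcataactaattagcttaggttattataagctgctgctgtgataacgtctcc
Tyr, chr7:87493513-87493762, minus strand: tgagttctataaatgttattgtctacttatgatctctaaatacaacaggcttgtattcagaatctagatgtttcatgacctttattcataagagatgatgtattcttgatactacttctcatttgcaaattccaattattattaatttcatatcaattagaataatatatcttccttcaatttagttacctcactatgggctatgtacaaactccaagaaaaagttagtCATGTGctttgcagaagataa
Dct, chr14:118052247-118052496, minus strand: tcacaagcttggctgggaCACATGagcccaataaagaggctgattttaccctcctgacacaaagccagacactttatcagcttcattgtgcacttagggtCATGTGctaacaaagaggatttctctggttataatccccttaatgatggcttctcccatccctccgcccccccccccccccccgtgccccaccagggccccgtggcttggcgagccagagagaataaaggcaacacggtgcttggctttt
Trpm1, chr7:64153585-64153834, plus strand: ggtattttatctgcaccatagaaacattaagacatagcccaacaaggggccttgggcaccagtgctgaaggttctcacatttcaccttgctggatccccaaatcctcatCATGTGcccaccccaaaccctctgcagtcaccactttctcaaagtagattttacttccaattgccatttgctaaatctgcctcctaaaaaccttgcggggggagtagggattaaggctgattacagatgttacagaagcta
The Mitf window belongs to the most downstream of the gene's listed starts. In it CTTTGAT began 205 bases and TGACGTCA 153 bases before the start. Searched on both strands, CTTTGAT was present in 3.21% and TGACGTCA in 1.55% of all 32851 windows of 250 bases. CATGTG was present in 12.3% of windows, in 6 of the 6 pigment genes that had a window (Tyr, Tyrp1, Dct, Slc24a5, Oca2 and Trpm1) and in 0 of the 6 regulators that had one. These pigment genes had 7 windows and these regulators 13, so counts of genes and of windows differ. In Tyr it began 21 bases before the start, in Trpm1 141 bases, and in Dct at 150 and 232 bases. The palindromic E-box CACGTG, in 6.02% of windows, was present in those of Foxd3, Lef1 and Trpm1 (there at another start than the one printed), and TGACGTCA also in Foxd3. These matches describe letters in the windows and do not show that a factor was bound.

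Libraries held between 8.76 and 34.3 M counts. Protein-coding genes took 82.9% to 89.2% of counts in the other 3 groups and 23.8% to 87.0% in responders, of which 7 of 8 lay below every other library. For that reason the called responder differences of named genes are also given from a fit with this share as a covariate where the call was lost. The submitters' library numbers ran by group, so library order and group cannot be told apart. As a check of the melanoma label, 6 of 6 melanocyte markers had a mean of at least 1 CPM (counts per M counts, TMM-scaled) in every group. Their summed levels were 9939 to 16600 CPM in controls. The non-responders summed to between 379 and 13250 CPM, the responders to between 17.6 and 412 CPM, and the stable tumours to between 10.5 and 164 CPM. The lowest group mean was 1.05 CPM, for Slc45a2 in stable tumours, and responder 3 held 0 CPM of Tyr, Mlana and Slc45a2. These markers, Tyr, Tyrp1, Dct, Pmel, Mlana and Slc45a2, are also among the pigment genes described below. This check is therefore not separate from those results.

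Per gene length, Sox10 was the most abundant of the 9 transcripts in all 4 groups, and the level of Mitf had the widest spread between groups among the 3 leading genes. In controls, the deposited RPKM values averaged 101 ± 6.14 for Sox10, 83.6 ± 18.4 for Mitf and 68.8 ± 2.95 for Erbb3 (SD, n = 5), and each overlapped its neighbour in the order. Pax3 followed at 22.9 ± 3.40 RPKM, apart from both neighbours, and Foxd3, Ednrb, Tfap2a, Kit and Lef1 lay between 9.38 and 1.97 RPKM with overlapping ranges. In non-responders, stable tumours and responders Erbb3 took the second place and Mitf the third. The mean RPKM of Mitf in these groups was 40.2 ± 26.0 (n = 6), 16.2 ± 0.798 (n = 6) and 17.7 ± 4.41 (n = 8), in that order. Ednrb moved from the sixth place in controls to the last in stable tumours and responders.

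**Figure D1:**
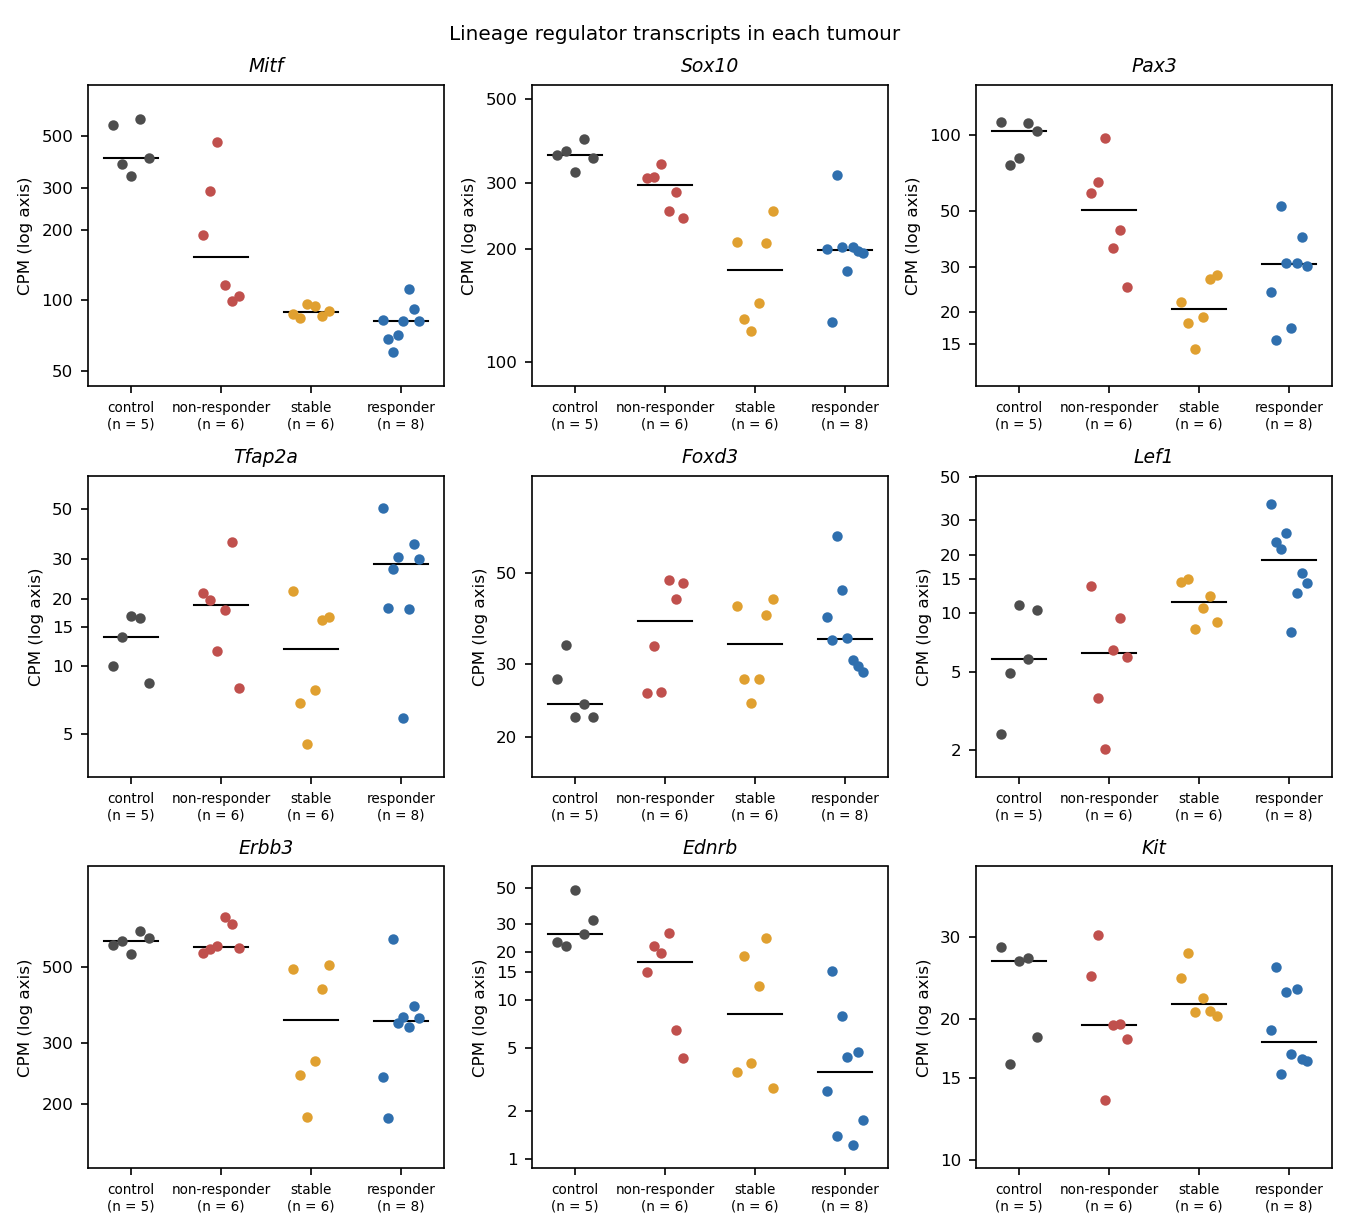
CPM of the 9 lineage regulators (vertical, log axis) in each of the 25 tumours, by group; a point is 1 tumour and a line the group median. Mitf lies at 336.8 to 591 CPM in controls and at 60.3 to 111 CPM in responders, while the 4 groups of Kit overlap.

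The comparison of responders with non-responders asked which regulators differed between tumours that shrank and tumours that grew under the same antibody. Mitf, Sox10, Pax3, Erbb3 and Ednrb were lower and Lef1 was higher in responders, 6 of 9 in all, by edgeR's quasi-likelihood test with Benjamini-Hochberg adjustment over 18031 genes (adjusted p under 0.05). Of all genes, 48.9% passed the same test, so the count is not far from the background. The median log2 difference of the 9 was -0.52, against 0.0523 over all genes. In a fit with that share added as a covariate, Mitf alone was called, where 10.0% of all genes were. No regulator had separate ranges in the 2 groups, and 5.01% of all genes did.

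In stable tumours compared with non-responders, Mitf, Sox10, Pax3 and Erbb3 were lower, 4 of 9, where 14.9% of all genes were called. The median of the 9 was -0.64 and that of all genes -0.019. Libraries of these groups had like protein-coding shares, and the 4 stayed called when that share was a covariate. Mitf and Erbb3 had separate ranges in the 2 groups, 2 of 9 regulators against 5.01% of all genes. The comparison of responders with stable tumours called 1 of 9, Tfap2a, which rose in responders, against 38.2% of all genes. No regulator had separate ranges there, and 0.715% of all genes did.

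The 3 outcome groups were also set against the same 5 controls, so these comparisons share samples. In responders 8 of 9 were called (65.0% of all genes), in stable tumours 4 of 9 (41.8%) and in non-responders 1 of 9 (13.9%). Mitf was called lower in each of the 3. Ranges apart from controls were found for 4 of 9 regulators in responders (30.0% of all genes), for 4 of 9 in stable tumours (35.5%) and for 0 of 9 in non-responders (4.08%).

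**Figure D2:**
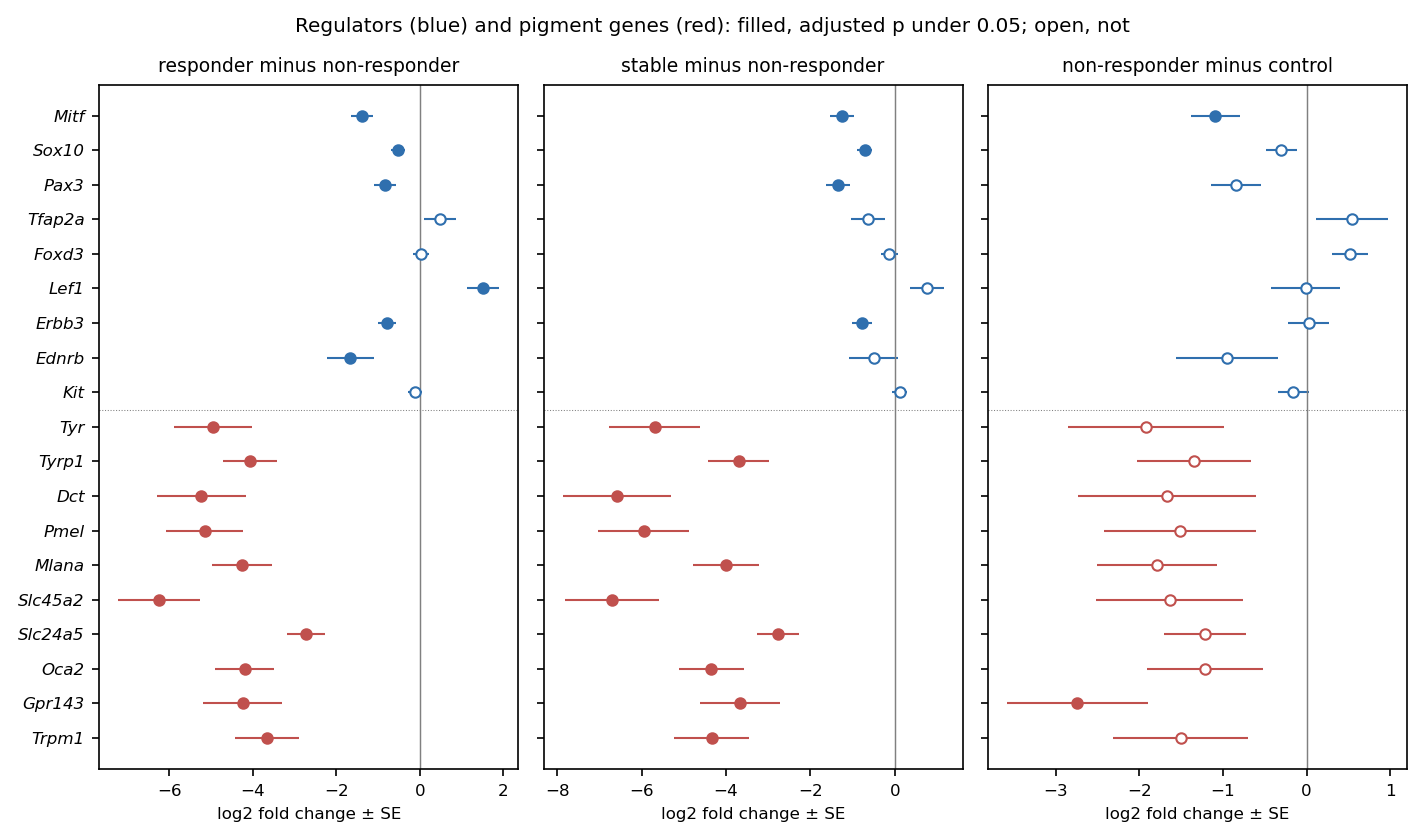
Log2 fold change with its standard error (horizontal) of the 9 regulators (blue) and 10 pigment genes (red) in 3 comparisons; filled points have an edgeR adjusted p under 0.05. Mitf differs by -1.39 between responders and non-responders and the pigment genes by -2.72 to -6.25.

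Mitf, on the plus strand of chromosome 6 (97807052 to 98021349, GRCm38), had the lowest fold change against controls among the transcription factors, and of the 3 outcome groups the non-responders had by far its widest range. The controls held 556, 379.8, 337, 591 and 402 CPM. Non-responders held 189, 293, 471, 117, 99.2 and 105 CPM, spanning the range from just above the stable tumours up to the controls. Stable tumours lay within 84.2 to 96.3 CPM (median 88.8), all below every non-responder. Responders lay within 60.3 to 111 CPM (median 81.8), and 7 of 8 were below every non-responder. The log2 difference was -1.39 between responders and non-responders (SE 0.26, edgeR adjusted p = 0.000329), and -1.32 after adjustment for the protein-coding share (adjusted p = 0.0286). It was -1.24 between stable tumours and non-responders (SE 0.28, adjusted p = 0.00669). Between responders and stable tumours it was -0.14 (SE 0.26, adjusted p = 0.682). Against controls Mitf fell by 2.48 in responders (adjusted p = 2.07e-07), by 2.34 in stable tumours (adjusted p = 2.46e-06) and by 1.09 in non-responders (SE 0.29, adjusted p = 0.0138). In non-responders the call against controls was lost when only these 2 groups were fitted. The counts are per gene and do not separate the melanocyte transcript of Mitf from the others. Mast cells and macrophages also express Mitf. The summed level of 7 mast cell markers was 70.8 to 147 CPM in non-responders, 25.1 to 77.5 CPM in stable tumours and 9.78 to 52.9 CPM in responders, with none at 0 in a whole group. The summed level of 6 macrophage markers was 638 to 1981 CPM, 1797 to 2829 CPM and 812 to 2502 CPM in the same order. The part of these cells in the Mitf differences was not tested.

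Sox10, a SOX-family factor of neural crest cells and melanoma (chromosome 15, 79154908 to 79165240, minus strand), changed in the same direction as Mitf but by less. It held 356, 365, 321, 391 and 349 CPM in controls and 242 to 337 CPM (median 296) in non-responders. Stable tumours held 121 to 252 CPM (median 176) and responders 128 to 314 CPM (median 199). All stable tumours and all responders lay below every control, and 7 of 8 responders lay below every non-responder, responder 3 being the exception. The log2 difference from non-responders was -0.52 in responders (SE 0.16, edgeR adjusted p = 0.0129) and -0.71 in stable tumours (SE 0.18, adjusted p = 0.0110). After adjustment for the protein-coding share the responder difference was no call (-0.53, adjusted p = 0.112). Against controls Sox10 fell by 0.82 in responders (adjusted p = 0.00025) and by 1.01 in stable tumours (adjusted p = 0.000113), and differed by -0.30 in non-responders (adjusted p = 0.292).

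Pax3, a paired-box factor of melanoblasts (chromosome 1, 78101267 to 78197134, minus strand), was at its lowest in stable tumours. Controls held 113, 75.8, 81.3, 112 and 104 CPM, and non-responders 25.1 to 97.5 CPM (median 50.6). Stable tumours held 14.3 to 27.9 CPM (median 20.5) and responders 15.6 to 52.3 CPM (median 30.8). Stable tumours and responders lay wholly below the controls and overlapped the non-responders. The log2 difference from non-responders was -1.34 in stable tumours (SE 0.29, edgeR adjusted p = 0.00486) and -0.84 in responders (SE 0.26, adjusted p = 0.0120; -0.78, adjusted p = 0.158 with the share as a covariate), the latter lost also without non-responder 3. Against controls it fell by 2.18 in stable tumours (adjusted p = 4.88e-06) and by 1.68 in responders (adjusted p = 1.56e-05), and differed by -0.84 in non-responders (adjusted p = 0.0565). Leaving out non-responder 3, the highest of its group for Pax3, made the non-responder difference from controls a call, and so did leaving out responder 2, 3 or 5 from the joint fit, RLE size factors, DESeq2 or a fit of protein-coding genes only.

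Tfap2a and Foxd3 did not follow Mitf downward. Tfap2a encodes AP-2 alpha, a neural crest and keratinocyte factor (chromosome 13, 40715302 to 40738376, minus strand). It held 10.1, 13.5, 16.8, 16.4 and 8.49 CPM in controls, 8.03 to 35.7 CPM in non-responders, 4.52 to 21.7 CPM in stable tumours and 5.89 to 50.2 CPM in responders. The median was highest in responders, at 28.4 CPM against 11.9 CPM in stable tumours, with overlapping ranges. Its log2 difference was 1.12 between responders and stable tumours (SE 0.39, edgeR adjusted p = 0.0288) and 1.03 between responders and controls (SE 0.42, adjusted p = 0.0340). Neither was a call after adjustment for the protein-coding share (0.14, adjusted p = 0.921 and -0.022, adjusted p = 0.976) or without responder 1 or 7. With that adjustment 0.00% of all genes were called between responders and stable tumours, and 45.3% between responders and controls. The first was also lost without stable tumour 2, 3 or 4, and the second without control 1, 2 or 5. Responder 1 had the highest Tfap2a level and the lowest protein-coding share. The summed level of 7 keratinocyte markers ranged from 1.98 to 1437 CPM in responders (median 188) and from 11.8 to 108 CPM in stable tumours (median 48.8). The median log2 difference of these markers was 2.37, with 0 of 7 called beside 38.2% of all genes. None was at 0 in a whole group, and their part in the Tfap2a difference was not tested.

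Foxd3, a forkhead factor of the early neural crest encoded by a short gene on chromosome 4 (99656299 to 99658622, plus strand), held 27.6, 33.4, 22.4, 24.0 and 22.3 CPM in controls. It held 25.6 to 48.1 CPM in non-responders (median 38.2), 24.1 to 43.2 CPM in stable tumours (median 33.5) and 28.7 to 61.5 CPM in responders (median 34.5). The 4 ranges overlapped. Foxd3 rose by 0.55 in responders against controls (SE 0.20, edgeR adjusted p = 0.0211; 0.50, adjusted p = 0.122 with the share as a covariate), a call lost without responder 3 or control 3, 4 or 5. The other 2 outcome groups differed from controls by 0.39 and 0.52 without a call, and responders and non-responders by 0.03 (SE 0.19, adjusted p = 0.896).

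Lef1, a nuclear partner of beta-catenin in WNT signalling (chromosome 3, 131110471 to 131224356, plus strand), was the only regulator called higher in responders than in non-responders. Controls held 2.40, 4.94, 11.1, 5.84 and 10.4 CPM and non-responders 13.8, 3.67, 2.02, 6.47, 9.45 and 6.00 CPM. Stable tumours held 8.36 to 15.1 CPM (median 11.4) and responders 8.00 to 36.4 CPM (median 18.8). Of the 8 responders 6 lay above every non-responder and 7 above every control. The log2 difference of responders was 1.52 from non-responders (SE 0.38, edgeR adjusted p = 0.00291; 0.81, adjusted p = 0.205 with the share as a covariate) and 1.51 from controls (SE 0.41, adjusted p = 0.00251; 0.75, adjusted p = 0.192 with the share as a covariate). Stable tumours differed from non-responders by 0.76 (SE 0.39, adjusted p = 0.199). T cells also express Lef1. All 10 T cell markers were called higher in responders than in controls (65.0% of all genes called), and 3 of 10 higher than in non-responders (48.9%). With the share as a covariate, 10 of 10 (45.3% of all genes) and 2 of 10 (10.0%) of these markers were called. Their summed level was 14.1 to 40.0 CPM in controls, 28.6 to 237 CPM in non-responders, 208 to 289 CPM in stable tumours and 124 to 301 CPM in responders, none being at 0 in a whole group. Responder 1, with the highest Lef1 level, had the lowest T cell sum of its group, and responder 5, with the lowest Lef1 level, had the highest. These tumours also had the lowest and the highest protein-coding share of the responders, 23.8% and 87.0%. The part of T cells in the Lef1 difference was not tested beyond these values.

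**Figure D3:**
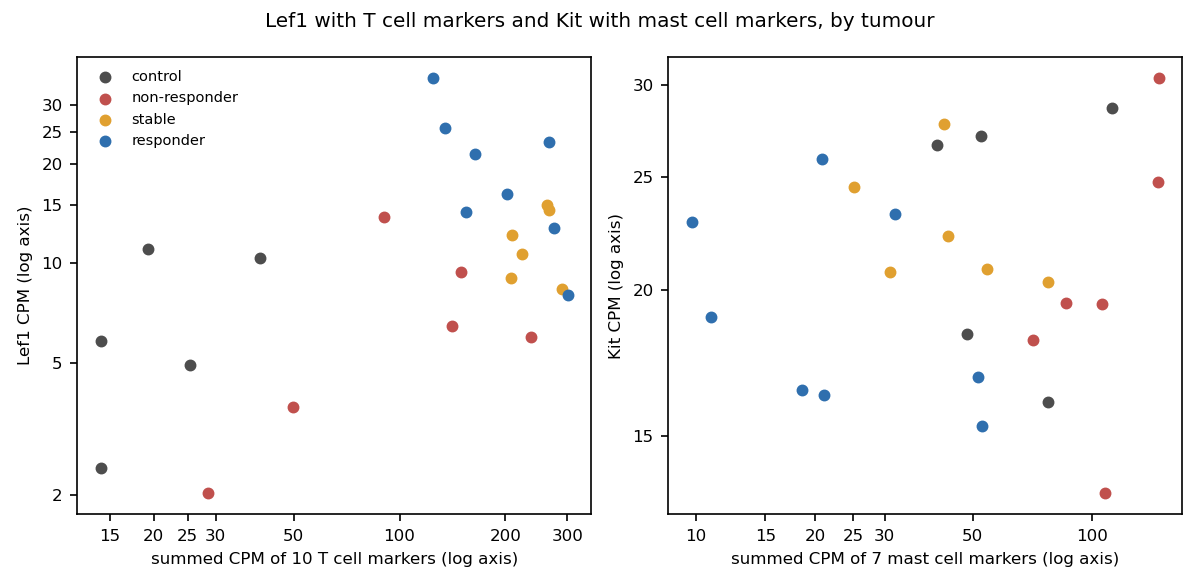
Left, Lef1 against the summed CPM of 10 T cell markers; right, Kit against the summed CPM of 7 mast cell markers; all axes are log axes, a point is 1 of 25 tumours and colours are the groups. Responders lie at 124 to 301 CPM of T cell markers and 9.78 to 52.9 CPM of mast cell markers.

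Among the receptors, Erbb3, the neuregulin receptor (chromosome 10, 128567523 to 128589652, minus strand), separated stable tumours from non-responders, Ednrb was lowest in responders and Kit was called in none of the 6 comparisons. Erbb3 held 580.0, 594, 545, 639 and 610.0 CPM in controls and 551 to 702 CPM (median 572) in non-responders. Stable tumours held 182 to 506 CPM (median 349), all below every control and every non-responder. Responders held 181 to 604 CPM (median 349), and 7 of 8 lay below both. The log2 difference from non-responders was -0.79 in responders (SE 0.22, edgeR adjusted p = 0.00567; -0.59, adjusted p = 0.164 with the share as a covariate) and -0.77 in stable tumours (SE 0.24, adjusted p = 0.0302). The latter was lost without stable tumour 2, 3 or 4 or non-responder 2, 3, 4 or 5. Against controls Erbb3 fell by 0.76 in responders (adjusted p = 0.00566; -0.55, adjusted p = 0.140 with the share as a covariate). Non-responders and controls differed by 0.03 (SE 0.25, adjusted p = 0.959). Schwann cells also express Sox10, Erbb3 and Foxd3. The summed level of 8 Schwann cell markers was 659 to 886 CPM in controls, 631 to 776 CPM in non-responders, 374 to 642 CPM in stable tumours and 254 to 609 CPM in responders, and 4 of 8 were lower in responders than in non-responders. The count of 4 stands beside 48.9% of all genes called, and with the share as a covariate it was 1 of 8 (10.0% of all genes). None of the 8 markers was at 0 in a whole group, and their part was not tested.

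Ednrb, the endothelin B receptor (chromosome 14, 103814625 to 103844402, minus strand), held 22.9, 21.8, 49.0, 26.0 and 31.8 CPM in controls. Non-responders held 4.32 to 26.4 CPM (median 17.3), stable tumours 2.80 to 24.5 CPM (median 8.14) and responders 1.23 to 15.2 CPM (median 3.52). All 8 responders lay below every control, and 4 of 8 below every non-responder. The log2 difference of responders was -2.62 from controls (SE 0.58, edgeR adjusted p = 0.000474) and -1.67 from non-responders (SE 0.56, adjusted p = 0.0181; -1.43, adjusted p = 0.237 with the share as a covariate). The difference of stable tumours from controls, -1.46 (SE 0.61), was not called (adjusted p = 0.0605), though it was without responder 2 or stable tumour 2 or 5, with DESeq2, in limma on log2(RPKM + 1) and with protein-coding genes only. Endothelial cells also express Ednrb. Of 7 endothelial markers 6 were lower in responders than in non-responders (48.9% of all genes called), and 4 with the share as a covariate (10.0%). Their summed level was 141 to 211 CPM in controls, 155 to 296 CPM in non-responders, 94.1 to 166 CPM in stable tumours and 71.2 to 126 CPM in responders, none being at 0 in a whole group. Their part in the Ednrb difference was not tested.

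Kit, the receptor for stem cell factor (chromosome 5, 75574916 to 75656722, plus strand), held 28.6, 16.1, 26.7, 27.1 and 18.4 CPM in controls, 13.4 to 30.4 CPM in non-responders, 20.4 to 27.7 CPM in stable tumours and 15.3 to 25.9 CPM in responders. The 4 ranges overlapped. The 6 log2 differences ran from -0.26 (SE 0.18, responders minus controls) to 0.12 (SE 0.18, stable tumours minus non-responders), and the lowest edgeR adjusted p was 0.189. With no filter on low counts, the difference between responders and controls was a call (adjusted p = 0.0367). Mast cells also express Kit. Of 7 mast cell markers 5 were lower in responders than in non-responders, with a median log2 difference of -2.37 over the list, where that of Kit was -0.11 (SE 0.17). The count of mast cell markers stands beside 48.9% of all genes called, and with the share as a covariate it was 2 of 7 (10.0%). Whether Kit RNA came from tumour or mast cells was not tested.

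The ligand of KIT did change. Kitl, which encodes stem cell factor, averaged 112 ± 30.6 CPM in controls (SD, n = 5), 90.8 ± 28.5 CPM in non-responders (n = 6), 55.5 ± 11.5 CPM in stable tumours (n = 6) and 36.6 ± 8.55 CPM in responders (n = 8). Its log2 difference was -1.31 between responders and non-responders (SE 0.19, edgeR adjusted p = 3.69e-05), -0.60 between responders and stable tumours (adjusted p = 0.0166) and -0.71 between stable tumours and non-responders (adjusted p = 0.0204). The difference between responders and stable tumours was no call after adjustment for the protein-coding share (-0.39, adjusted p = 0.479, with 0.00% of all genes called), in limma on RPKM or without stable tumour 4. The neuregulin gene Nrg1 was lower than in controls in each outcome group, with a mean of 13.6 CPM in controls and 3.01 to 4.96 CPM in the 3 groups. The log2 difference was -1.44 in responders (adjusted p = 0.00226; -0.90, adjusted p = 0.172 with the share as a covariate), -2.18 in stable tumours (adjusted p = 0.000216) and -1.58 in non-responders (adjusted p = 0.0127). Of the 10 ligands and endothelin-converting enzymes 7 were tested. Between responders and non-responders 1 was lower, Kitl, and 1 higher, the neuregulin gene Nrg2 (1.11, adjusted p = 0.0130; 0.58, adjusted p = 0.361 with the share as a covariate). These counts, and those of the next lists, stand beside 48.9% of all genes called in this comparison. Edn3, the melanoblast endothelin, was below the count filter.

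Of the 4 partner and sister receptors, 1 differed between responders and non-responders, Erbb4, another neuregulin receptor, at a higher mean of 1.51 against 0.436 CPM (log2 difference 1.74, edgeR adjusted p = 0.000574). Ednra, the endothelin A receptor, was higher in non-responders than in controls by 1.59 (SE 0.35, adjusted p = 0.00299). Among 13 tested relatives of the transcription factors, 4 were higher and 1 lower in responders than in non-responders, with a list median of 0.11. Tfec and Tfe3, which encode relatives of MITF, were higher by 1.08 (adjusted p = 0.00711) and 0.37 (adjusted p = 0.000225). Tfec averaged 2.13 CPM in controls, 7.22 CPM in non-responders, 16.7 CPM in stable tumours and 15.3 CPM in responders. The summed level of 6 macrophage markers had medians of 543, 1047, 2158 and 963 CPM in the same order. Which cells held the Tfec RNA was not tested. Tcf7, the T cell relative of Lef1, was higher by 0.54 (adjusted p = 0.0154). Of 13 other neural crest regulators 5 were lower and 0 higher, with a median of -0.24; among them Id3, an inhibitor of helix-loop-helix factors, differed by -0.89 (adjusted p = 0.00895; -0.84, adjusted p = 0.123 with the share as a covariate), and with that covariate 0 of the 13 were called. Of 7 tested WNT target genes 1 was called between responders and non-responders, Rnf43, a membrane ubiquitin ligase, which was higher by 1.53 (adjusted p = 0.00535; 0.71, adjusted p = 0.311 with the share as a covariate), and Axin2, a feedback inhibitor of the pathway, differed by -0.09 (adjusted p = 0.785). The members of these lists that the naming rule does not pick, Erbb4, Tfe3, Tcf7 and Axin2, were chosen after their values were seen.

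The pigment genes, the targets of MITF, fell much further than the regulators. Tyr, which encodes tyrosinase, averaged 905 ± 155 CPM in controls (SD), 239 ± 260 CPM in non-responders, 4.58 ± 3.29 CPM in stable tumours and 7.75 ± 6.99 CPM in responders. All 10 pigment genes were called lower in responders than in non-responders, with log2 differences of -2.72 (Slc24a5) to -6.25 (Slc45a2) and a median of -4.25. Of all genes, 48.9% were called there. After adjustment for the protein-coding share 4 of the 10 pigment genes were called, against 10.0% of all genes. The edgeR adjusted p of the other 6, Dct, Mlana, Slc45a2, Oca2, Gpr143 and Trpm1, was 0.0525 to 0.266. All 10 were also lower in stable tumours than in non-responders, from -2.77 (Slc24a5) to -6.70 (Slc45a2), where 14.9% of all genes were called. Between non-responders and controls 1 of 10, Gpr143, was called (-2.74, SE 0.84, edgeR adjusted p = 0.0304), a share near the 13.9% of all genes. That call was lost with no filter, with only these 2 groups fitted, with DESeq2, or without non-responder 4, 5 or 6 or control 1, 4 or 5. Limma on log2(RPKM + 1) called 8 further pigment genes there, all but Tyrp1.

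To ask whether regulators and pigment genes moved by different amounts, each gene was divided by Sox10 in the same tumour and the log2 ratios were tested with limma. Relative to Sox10, 10 of 10 pigment genes were lower in responders than in non-responders, where 3.24% of all genes were lower. The differences in ratio ran from -1.61 (Slc24a5, SE 0.40, adjusted p = 0.00184) to -4.60 (Dct, SE 1.27, adjusted p = 0.00517). Of the 8 other regulators 0 were called lower. Mitf differed by -0.60 (SE 0.27, adjusted p = 0.0640), Ednrb by -1.32 (SE 0.66, adjusted p = 0.100) and Pax3 by -0.25 (SE 0.19, adjusted p = 0.279). Mitf was called lower without non-responder 4, 5 or 6, and Ednrb without responder 2. Lef1, Tfap2a and Foxd3 were higher relative to Sox10 by 2.16, 0.98 and 0.59, but so were 45.1% of all genes, whose median was 0.581. Without non-responder 3 only 1 of these 3, Lef1, was called, and likewise after adjustment for the protein-coding share, where 8 of the 10 pigment genes were called. The next comparison was stable tumours against non-responders, in which 9 of 10 pigment genes were lower relative to Sox10 (0.965% of all genes), and of the regulators Pax3 was lower (difference -0.48, SE 0.20, adjusted p = 0.0424), a call lost without any of 7 single tumours or with Erbb3 as the reference. Kit, Lef1 and Foxd3 were higher by 0.91, 1.71 and 0.63, beside 59.4% of all genes and an overall median of 0.747.

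Between non-responders and controls, Mitf was lower relative to Sox10 (difference -1.01, SE 0.30, limma adjusted p = 0.0302) and so was Pax3 (-0.65, SE 0.21, adjusted p = 0.0468), where 0.677% of all genes were lower. Foxd3 was higher by 0.79 (SE 0.22, adjusted p = 0.0215), where 10.5% were higher. Of the pigment genes 2 of 10, Gpr143 and Slc24a5, were lower. The Mitf call was lost without non-responder 4, 5 or 6 or control 1 or 4, and that of Pax3 without any of 15 single tumours. The Foxd3 call was lost without non-responder 4, 5 or 6 or control 4 or 5, or with Erbb3 as the reference. That of Slc24a5 was lost without any of 7 single tumours. Against the same controls, the Mitf ratio was lower in responders (difference -1.61, adjusted p = 1.83e-05, with 5.27% of all genes lower) and in stable tumours (-1.24, adjusted p = 0.000728, with 2.45% lower). Neither Mitf call was lost when any single tumour was left out. Pax3 was lower too, in responders (-0.90, limma adjusted p = 0.000289) and in stable tumours (-1.135, adjusted p = 4.94e-05). Ednrb was lower in responders (-2.16, adjusted p = 0.00867), a call lost with the share as a covariate (adjusted p = 0.0589). Foxd3 and Lef1 were higher in both groups, Tfap2a in responders (lost with that covariate) and Kit in stable tumours. The all-gene medians were 0.953 in responders and 1.08 in stable tumours, the latter above the 1.05 of Kit. Most genes thus rose against Sox10, and the share of all genes called higher is not given here. These higher calls are therefore not read as particular to the regulators. The last 2 comparisons of ratios were added after seeing the data. Between responders and stable tumours 1 regulator was called relative to Sox10, Tfap2a (0.92, SE 0.35, adjusted p = 0.0499), against 26.2% of all genes. Of these regulators, Erbb3 alone had no call relative to Sox10, with ratio differences of -0.31 to 0.33 over the comparisons. It was not the nearest to Sox10 in each of them. Between responders and non-responders Pax3 differed by -0.25 and Erbb3 by -0.31, and between responders and stable tumours Foxd3 differed by -0.045 and Erbb3 by -0.19.

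**Figure D4:**
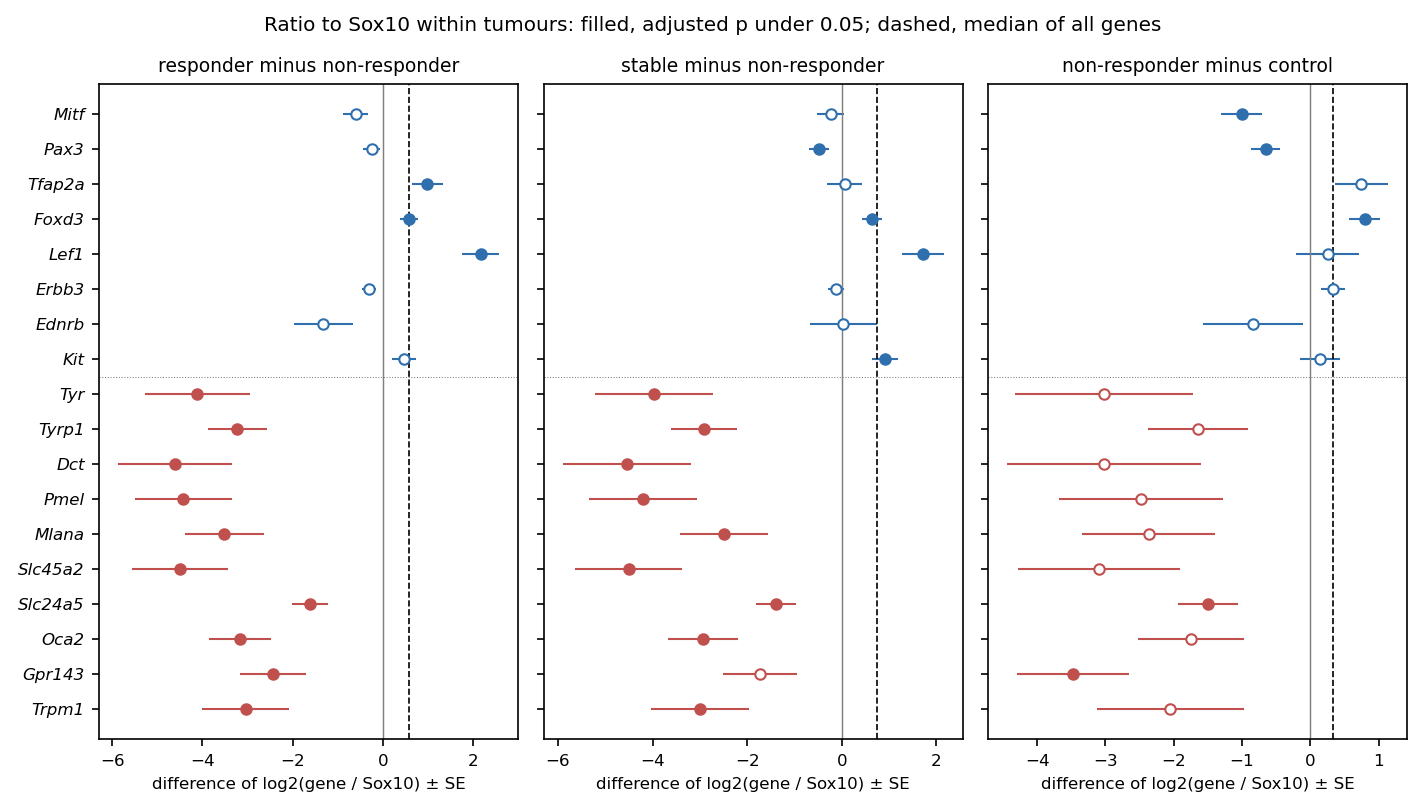
Difference between groups in the log2 ratio of each gene to Sox10 within tumours, with its standard error (horizontal), for the other 8 regulators (blue) and 10 pigment genes (red); filled points have a limma adjusted p under 0.05 and the dashed line is the median of all genes. The pigment genes lie at -1.61 to -4.60 in responders minus non-responders, where the all-gene median is 0.581.

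Within groups, a pigment score per tumour, the mean log2 CPM of the 10 pigment genes, was set beside each regulator. Controls scored 8.24 to 9.23, non-responders 3.67 to 8.55, stable tumours -0.0038 to 3.11 and responders -1.05 to 3.72. In responders and stable tumours some of the 10 genes lay near 0 CPM, such as Gpr143 (medians 0.025 and 0.15 CPM) and Slc45a2 (1.35 and 0.94 CPM). Responder 3, with the lowest score, held 0 CPM of Tyr, Mlana, Slc45a2 and Gpr143. Low scores therefore rest partly on depth and on the small count added before taking logs. In an edgeR fit with group means, Mitf rose by 0.24 (log2) per unit of the score (SE 0.05, adjusted p = 0.00958) and Foxd3 fell by 0.15 per unit (SE 0.04, adjusted p = 0.0474), 2 of 9 regulators against 3.13% of all genes. Sox10 had a slope of -0.01 (SE 0.04, adjusted p = 0.952), Pax3 0.11 (SE 0.06, adjusted p = 0.412) and Ednrb 0.35 (SE 0.16, adjusted p = 0.251). The Pax3 slope was a call without responder 3 (0.28, adjusted p = 0.00335), without all responders (0.28, adjusted p = 0.00165) and in limma on RPKM (0.30, adjusted p = 0.0206). The Mitf slope rested on the non-responders. Without that group it was 0.08 (adjusted p = 0.416), and leaving out non-responder 3 or 6 ended its call. The Foxd3 slope was -0.13 without the non-responders (adjusted p = 0.315), and its call was lost without any of 20 of the 25 tumours.

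Correlations within the 3 anti-CTLA-4 groups gave 27 relations, of which 6 had an unadjusted exact permutation p under 0.05 for Pearson's r. In non-responders 3 regulators followed the pigment score upward. For Mitf r was 0.965 (exact p = 0.0028) and Spearman's rho 0.943 (exact p = 0.0167). For Pax3 r was 0.937 (exact p = 0.0069) and rho 0.943 (exact p = 0.0167). For Sox10 r was 0.906 (exact p = 0.025) with the same rho and p. The 6 scores fell into 3 below and 3 above a gap of 48.3% of their range, so each r rests largely on the difference between these tumours. Without the 2 tumours farthest from the median score, non-responders 3 and 6, r was 0.985 for Mitf (exact p = 0.0417, the smallest that 4 tumours allow), 0.925 for Pax3 (exact p = 0.208) and 0.793 for Sox10 (exact p = 0.208). Foxd3 ran the other way in non-responders, with r of -0.888 (exact p = 0.0569) and rho of -0.657 (exact p = 0.175). The T cell sums of non-responders 1 to 6 were 90.5, 49.8, 28.6, 141, 149 and 237 CPM, in the reverse order of their pigment scores, and their part in these relations was not tested.

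In responders Foxd3 was negatively related to the score, with r of -0.792 (exact p = 0.0206) and rho of -0.738 (exact p = 0.0458), and r was -0.694 without responders 3 and 5 (exact p = 0.131). Mitf had r of 0.657 there (exact p = 0.0789) and rho of 0.571 (exact p = 0.151). In stable tumours, whose Mitf levels spanned 84.2 to 96.3 CPM, the sign for Mitf was negative, with r of -0.757 (exact p = 0.0389), rho of -0.714 (exact p = 0.136) and r of -0.592 without stable tumours 3 and 6 (exact p = 0.417). Lef1 had r of 0.819 (exact p = 0.0028) and rho of 0.943 (exact p = 0.0167) in stable tumours, and 0.625 without the same 2 tumours (exact p = 0.333). For Kit in stable tumours rho was 0.943 (exact p = 0.0167) and r 0.622 (exact p = 0.16). With 6 or 4 tumours left, these p-values say little about whether a relation held. In responders and stable tumours the score also includes pigment genes near 0 CPM. No p here is adjusted for the 27 relations.

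**Figure D5:**
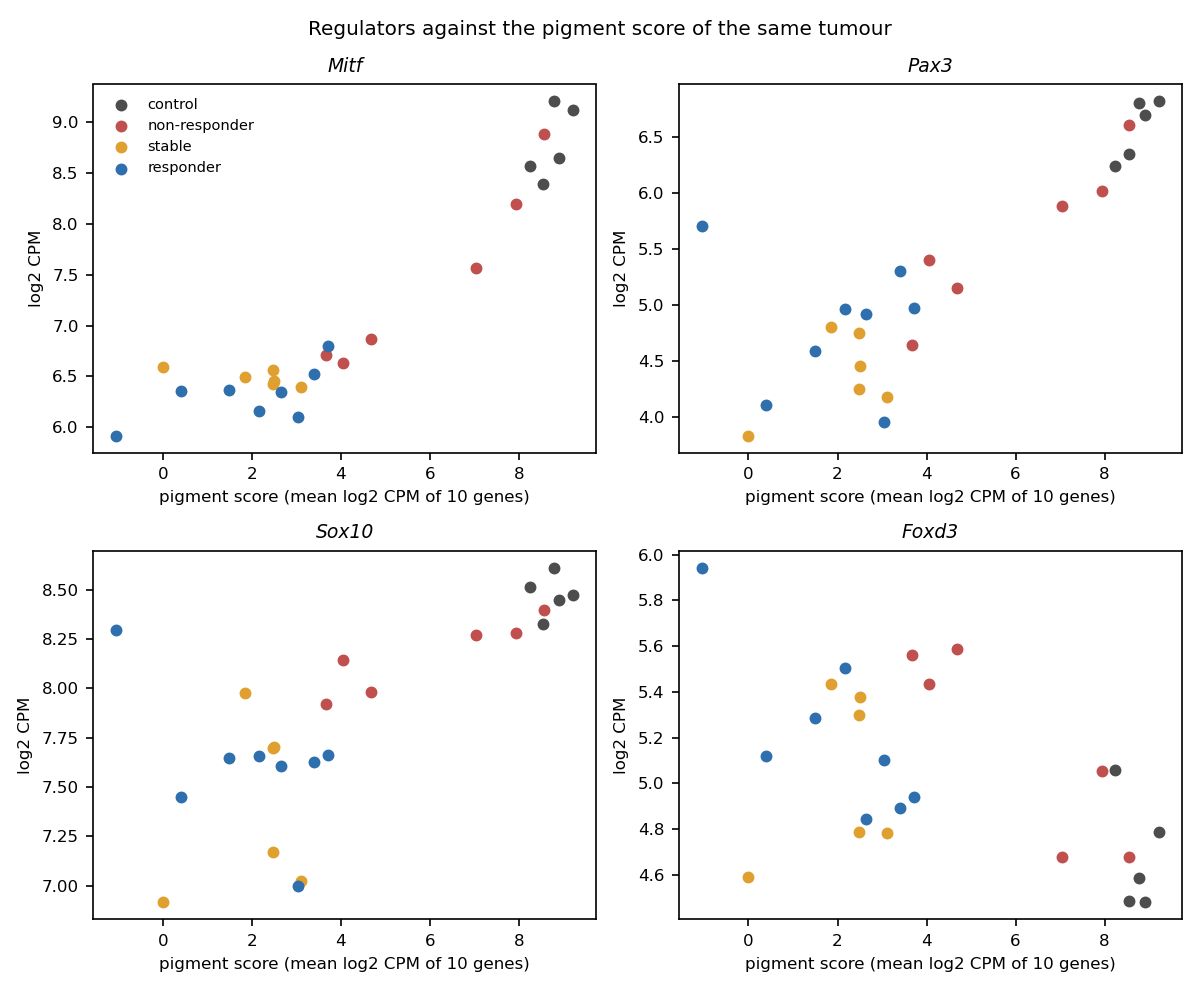
Log2 CPM of Mitf, Pax3, Sox10 and Foxd3 (vertical) against the pigment score of the same tumour (horizontal, mean log2 CPM of 10 pigment genes); a point is 1 of 25 tumours, coloured by group. Non-responders extend over scores of 3.67 to 8.55, and stable tumours and responders lie at or below 3.72.

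Across all 25 tumours, the protein-coding genes whose log2 CPM was most like that of each regulator were found among 13687 genes, as a description that includes the group differences. Closest to Mitf were Nipal3 (r = 0.983), Enho (r = 0.978) and Rab3a (r = 0.973). Closest to Sox10 were Pcbp4 (r = 0.954), Tom1l2 (r = 0.940) and the adaptor gene Shc4 (r = 0.940), and closest to Pax3 were Chsy3, Fbxl7 and Smarcd1 (r = 0.956 to 0.960). Erbb3 was nearest to Cadm1 (r = 0.932), to the neural crest factor gene Pou3f2 (r = 0.930) and to Gjc1 (r = 0.919). Tfap2a was nearest to Ltbp3, Agrn and Zfp362 (r = 0.912 to 0.915), Lef1 to Zfp618, Nckap5 and Sidt2 (r = 0.876 to 0.909), Ednrb to S100a16, Tpm1 and Slc39a10 (r = 0.859 to 0.896) and Foxd3 to Nkd2, Pdgfa and 1700025G04Rik (r = 0.826 to 0.881). Kit had the weakest likeness, with Slc16a7 at r = 0.705, Lrat at r = 0.619 and Parm1 at r = 0.550.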

How the data were processed

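RNA sequencing of 25 tumours was analysed from 2 deposited tables. The authors deposited estimated counts per gene (expected counts, not normalized, 5.64% of values not whole) for 55450 genes, and RPKM values for 19522 symbols. Per the submitters' processing notes, bcl2fastq 2.17, Trimmomatic, STAR 2.5.1, RSEM 1.2.22 and the build mm10 were used. Their order and settings are not given. The labels name a stranded total RNA kit and also polyA RNA as the molecule.

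Counts were rounded, filtered with filterByExpr by group and scaled by TMM. Group means over all 25 tumours were fitted with edgeR 4.0.16 (R 4.3.3, robust quasi-likelihood), two-sided, with Benjamini-Hochberg adjustment over 18031 genes; a gene under 0.05 is called. Ratios to Sox10 used limma 3.58.1 on log2 CPM with a prior count of 2. The pigment slope used edgeR with group means, and within-group correlations exact permutation tests (scipy 1.17.1). The fits were tested on simulated data. Replicates were numbered in record order; the labels name separate tumours, and no 2 libraries of a group were alike within sampling noise. Counts per gene do not separate overlapping genes or transcripts.

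Coordinates are from GENCODE release 21 for GRCm38, whose identifiers all 55450 genes matched. Promoter windows came from RefSeq on GRCm38.p6 and were held for 6 of 9 regulators and 6 of 10 pigment genes, with no entry for Sox10, Pax3 and Erbb3.

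All 9 regulators and 10 pigment genes were named. Of the pathway lists, the 2 highest and 2 lowest called genes with a mean of at least 1 CPM could be named, and for each regulator the 3 genes most like it. The regulators, lists and tests were chosen with earlier results of these data known. The alternatives comprised RLE size factors, DESeq2 1.42.0, no filter, protein-coding genes only, their share as a covariate, limma on log2(RPKM + 1), only the groups compared, Erbb3 as the reference, a prior count of 0.5, groups left out and each tumour left out.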

Additional observations from a re-analysis of the deposited data

How the results depend on the processing

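Depth (8.76 to 34.3 M counts) leaves Lef1, Ednrb and Tfap2a, at a few CPM in some tumours, less precise than Mitf, Sox10 or Erbb3. No paired analysis was possible because the labels carry tumour identifiers and no replicate numbers shared between groups. The protein-coding share cannot be told apart from the responder group in 7 of 8 responders. No group of values held a tumour far enough from the rest to be singled out by Dixon's test, in 40 groups of values checked. Where a value changed, the cause was not tested, except that settings with fewer tumours or genes have less power.

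The number of the 9 regulators called was 6 for responders minus non-responders and 1 with the share as a covariate, 5 to 6 with each tumour left out. For responders minus controls it was 8, then 4 with the covariate (45.3% of all genes called) and 6 to 8 with tumours left out. For responders minus stable tumours it was 1, then 0 with the covariate or no filter, 2 with only these groups fitted, and 0 to 2 with tumours left out (0 without responder 1 or 7 or stable tumour 2, 3 or 4, and 2 without responder 2). With the covariate 0.00% of all genes were called in that comparison, so the loss there is not particular to the regulators. For non-responders minus controls it was 1, then 0 with only these groups fitted, 2 with DESeq2, RLE size factors or protein-coding genes only, and 1 to 3 with tumours left out (3 without non-responder 3, 2 without responder 2, 3 or 5). It was 3 to 4 for stable tumours minus non-responders and 4 to 5 for stable tumours minus controls with tumours left out.

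The number of the other 8 regulators called in the ratio to Sox10 was 3 for responders minus non-responders, 1 with the covariate and 1 to 4 with tumours left out. For responders minus stable tumours it was 1 (Tfap2a, adjusted p = 0.0499), then 0 with Erbb3 as the reference, a prior count of 0.5 or the covariate, and 0 to 1 with tumours left out. For stable tumours minus non-responders it was 4, or 2 to 4 with tumours left out, 2 being without non-responder 3. For non-responders minus controls it was 3, then 1 with Erbb3 as the reference and 0 to 3 with tumours left out (0 without control 4 or non-responder 4, 5 or 6, and 1 without control 1 or 5). Of the regulators 2 had a slope on the pigment score, 1 with no filter or without the controls, 0 without the non-responders and 0 to 2 with tumours left out (0 without non-responder 3 or 6). Correlations with an exact p under 0.05 numbered 6, and 3 without the 2 outermost tumours. Of these 3 only Mitf in non-responders was among the 6. The others were Kit in stable tumours (r = 0.856, exact p = 0.0417) and Lef1 in responders (r = -0.848, exact p = 0.0347, against -0.0304 with all 8).

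Small differences that were not called, and 1 that was, changed sign. The called one was Tfap2a in responders minus controls, -0.022 with the covariate. For Tfap2a in responders minus non-responders the covariate gave -0.50. Erbb3 in non-responders minus controls was -0.0087 with DESeq2 or RLE, -0.069 with no filter, -0.017 with only these groups, and -0.021 to 0.052 with tumours left out, being negative without non-responder 4. Erbb3 in responders minus stable tumours was -0.17 to 0.11 with tumours left out, positive without stable tumour 6, 0.27 in limma on RPKM, 0.025 with only these groups, 0.042 with protein-coding genes only and 0.18 with the covariate. Mitf in the same comparison was 0.080 in limma on RPKM. Foxd3 in responders minus non-responders was -0.10 to 0.12 with tumours left out, negative without responder 3, -0.051 with no filter and -0.015 with the covariate. Kit in that comparison was -0.21 to 0.032 with tumours left out, positive without non-responder 2, and 0.014 in limma on RPKM. In stable tumours minus controls it was -0.15 to 0.044, positive without control 1. Lef1 in non-responders minus controls was -0.32 to 0.22 with tumours left out, positive without control 3, and 0.0056 in limma on RPKM. Tfap2a in stable tumours minus controls was -0.33 to 0.077, positive without stable tumour 3.

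Among log2 ratios to Sox10, with tumours left out, Ednrb in stable tumours minus non-responders was -0.30 to 0.43, negative without stable tumour 2, and Tfap2a -0.10 to 0.28, negative without non-responder 6. Erbb3 in responders minus controls was -0.020 to 0.092, negative without responder 5. Kit and Lef1 in non-responders minus controls were -0.19 and -0.077 with Erbb3 as the reference, Lef1 there was -0.071 to 0.60 with tumours left out, negative without control 1, and Pax3 in responders minus non-responders was 0.058 with that reference. Among slopes, Erbb3 was -0.11 to 0.0051 with tumours left out, positive without responder 3, 0.0026 in limma on RPKM and 0.0055 without the responders. Sox10 was -0.034 to 0.065, again positive without responder 3, and 0.076 and 0.082 under the other settings named for Erbb3. Lef1 was -0.15 to 0.016, positive without non-responder 3, and 0.019 without the non-responders, and Pax3 without them was -0.036. Tfap2a was -0.050 to 0.10, negative without stable tumour 3, -0.013 without the responders and -0.028 without the stable tumours.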
